A study of Homo sapiens with 6 samples.

Results

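HLA class I antigen presentation was followed through 9 genes, taken by symbol from a table of 18249 genes: the heavy chains HLA-B, HLA-C, HLA-E and HLA-F, the light chain B2M, the peptide transporter subunits TAP1 and TAP2, the loading factor TAPBP and the transcriptional coactivator NLRC5. All 9 were in the expression table, and all 9 passed the filter on low values, which asked for 1 or more in any of the 3 libraries. Heavy chain reads are hard to assign, because these genes are close copies of each other and vary between people, and how reads matching several of them were counted is not given in the sources used here, so the values of the 4 heavy chains are uncertain to that extent. HLA genes, TAP1, TAP2 and TAPBP lie on chromosome 6, B2M on chromosome 15 and NLRC5 on chromosome 16.

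The cells were TE-10, an established human line of esophageal squamous epithelium. RNA-seq covered 1 control library of TE-10 with normal METTL3 and 2 libraries of TE-10 with stable knockdown by short hairpin RNA of METTL3, the enzyme that methylates adenosines of mRNA to N6-methyladenosine (m6A). The titles number the knockdown libraries 1 and 2, and they are called the hairpin 1 and hairpin 2 libraries here. Sites of m6A were mapped in TE-10 with normal METTL3 only, from 1 input and 2 antibody-enriched libraries, so no site can be compared between knockdown and control.

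Class I molecules show peptides from inside the cell to CD8 T cells and natural killer (NK) cells. Proteasomes cut proteins into peptides, the TAP1-TAP2 transporter carries the peptides into the endoplasmic reticulum, and tapasin, encoded by TAPBP, holds the empty heavy chain with its B2M light chain at the transporter until a peptide is bound. HLA-B and HLA-C present peptides to T cells, HLA-E is read mainly by NK cell receptors, and HLA-F is a less common class I molecule. NLRC5 drives class I genes through promoter elements known as the SXY module, and interferons raise the same genes through IRF factors and their partners.

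Promoter sequences are shown first because the class I genes are known for shared promoter elements, against which the values of the heavy chains can be read. RefSeq (build GRCh38.p14) gave windows for 7 of the 9 genes, and HLA-E and NLRC5 had no entry in the table used. The stretches below run 5′ to 3′ over the 180 bases before the transcript start. They come from chr6:31357180-31357359 (minus strand), chr6:31272093-31272272 (minus strand), chr6:29723254-29723433 (plus strand), chr15:44711337-44711516 (plus strand) and chr6:32838740-32838919 (minus strand). Capitals mark matches on either strand to the IRF core element AANNGAAA, the CRE core TGACG and the NF-Y box CCAAT, and overlapping matches run together.
HLA-B: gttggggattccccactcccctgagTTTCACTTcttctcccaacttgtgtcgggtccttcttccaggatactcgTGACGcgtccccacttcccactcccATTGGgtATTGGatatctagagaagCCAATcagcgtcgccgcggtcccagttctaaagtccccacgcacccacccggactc
HLA-C: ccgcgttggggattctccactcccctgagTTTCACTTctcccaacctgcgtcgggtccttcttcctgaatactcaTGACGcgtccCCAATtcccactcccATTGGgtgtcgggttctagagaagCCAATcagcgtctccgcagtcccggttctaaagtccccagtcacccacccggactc
HLA-F: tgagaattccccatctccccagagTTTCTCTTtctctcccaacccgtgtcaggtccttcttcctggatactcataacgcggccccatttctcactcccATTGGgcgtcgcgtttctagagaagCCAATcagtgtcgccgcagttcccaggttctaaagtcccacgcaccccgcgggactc
B2M: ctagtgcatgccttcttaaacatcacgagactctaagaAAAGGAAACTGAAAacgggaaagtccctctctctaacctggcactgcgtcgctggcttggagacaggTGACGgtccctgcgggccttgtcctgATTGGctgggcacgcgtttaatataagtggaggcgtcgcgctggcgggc
TAP2: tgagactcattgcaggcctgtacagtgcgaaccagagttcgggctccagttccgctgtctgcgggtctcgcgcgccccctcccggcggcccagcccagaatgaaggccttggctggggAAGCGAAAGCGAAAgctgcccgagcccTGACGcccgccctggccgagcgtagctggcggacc

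The heavy chain promoters with a window, those of HLA-B, HLA-C and HLA-F, were much alike. Over the 250 bases before the start, HLA-B and HLA-C were identical at 89.0% of alignment columns, HLA-B and HLA-F at 80.4%, and HLA-C and HLA-F at 78.2%. Pairs that were not both heavy chains were at 42.7% to 49.0% in the same alignment. In HLA-B the IRF core element lay at -155 to -148 from the start, the CRE core at -106 to -102 and the last NF-Y box at -56 to -52. HLA-C had the same order, at -151 to -144, -105 to -101 and -56 to -52, with a further NF-Y box upstream of these at -192 to -188. HLA-F kept the IRF core element (-156 to -149) and the last NF-Y box (-57 to -53) and had no match to TGACG. In B2M the order was again IRF core elements, CRE core (-75 to -71) and NF-Y box (-49 to -45). TAP2 had 2 overlapping IRF core elements between -62 and -49 and a CRE core but no NF-Y box.

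**Figure D1:**
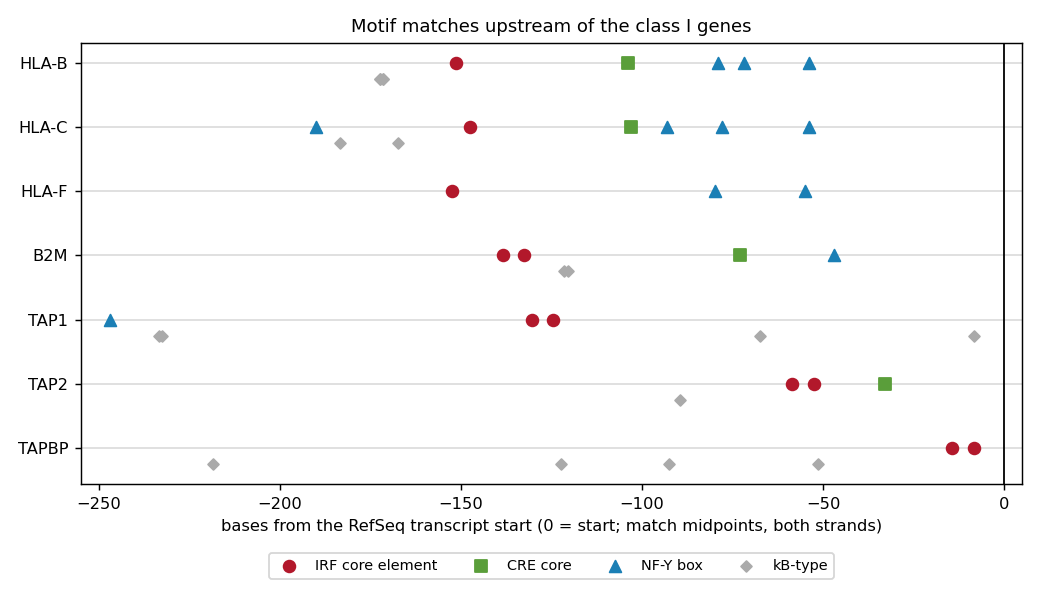
Positions of motif matches in the RefSeq windows of 7 class I genes, with bases from the transcript start on the x axis and 1 gene per line; each symbol is the midpoint of a match on either strand, and small grey diamonds are kB-type matches. In HLA-B and HLA-C the IRF core element, CRE core and last NF-Y box line up in that order, and HLA-C has a further NF-Y box upstream of them. HLA-F, TAP1 and TAPBP have no CRE core.

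Among the 8 windows of these genes (TAP1 has 2 annotated starts), 7 held AANNGAAA, against 20.3% of all 35116 RefSeq windows of the same length. The longer interferon response element, GAAA and GAAA with any 2 bases between them, contains the core element and was in 5 of 8 against 3.02%. CCAAT was in 5 of 8 against 32.0%, TGACG in 4 of 8 against 21.2%, and the kB-type pattern, GGG and CC with any 5 bases between them, in 7 of 8 against 54.4%. The letters of these motifs were chosen with class I promoters in view, and a match is a description of the sequence, not a bound site. The second annotated start of TAP1 had no match to the IRF, CRE or NF-Y letters.

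METTL3 itself was at 20.81 in the control, 8.35 in the hairpin 1 library and 4.99 in the hairpin 2 library, lower in both knockdown libraries as their labels say. The columns of the table summed to 608291, 617840 and 627152 in the same order. The hairpin 2 library stood apart in a list of 9 genes known from embryonic kidney cell lines. The list was chosen with earlier results of these data in hand, so its sums are a description and not a test. It summed to 4.26 in the control, 3.93 with hairpin 1 and 233 with hairpin 2. Of the hairpin 2 sum CDKN2A gave 144.68, HOXB9 53.12 and IRS4 23.56. No gene of the list was listed at 0 in that library, while 3 were in the control and 4 with hairpin 1. PAX8, which gave 4.11 of the control sum, went the other way and was lower with hairpin 1 (3.51) and hairpin 2 (3.66). Markers of squamous epithelium summed to 4704, 4557 and 2866. Leukocyte markers were near 0 apart from CD68, a lysosomal protein also made outside leukocytes (18.81, 7.88 and 9.93). Fibroblast markers summed to 3.42, 3.70 and 3.75, and endothelial markers to 1.21, 0.37 and 0.35. Values are therefore given for each hairpin library, and log2 changes with an SE are limma's means over both. The part of this difference in the class I values was not tested. In bulk RNA, fewer cells that express a gene and less of its RNA per cell cannot be told apart.

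No class I gene passed the test for knockdown against control. In limma, fitted to all genes on log2(value + 1), 0 of 9 had an adjusted p under 0.05, and 0 of 9 had an unadjusted p under 0.05. The background was 0 of 12375 genes tested (0.0%) after adjustment and 162 (1.31%) before it. The control is a single library, so the spread came from the 2 knockdown libraries (1 residual degree of freedom), under the assumption of equal spread in the control. An exact permutation test of 2 libraries against 1 cannot go below p = 0.333 (one-sided). The 2 knockdown libraries carry different hairpins, so this spread includes any difference between the hairpins and the library difference described above. The labels name no replicate culture of either hairpin, so spread between like cultures was not measured.

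Most class I genes had somewhat lower values in each knockdown library, by less than 2-fold everywhere. With hairpin 1, 7 of 9 were lower than the control, where 52.1% of all genes tested were lower, and the median log2 change was -0.18 against -0.01 over all genes. With hairpin 2, 8 of 9 were lower (7 with quantile normalization), where 49.7% of all genes were, and the median was -0.17 against 0.00. With quantile normalization the hairpin 2 median was -0.29. The 2 comparisons share the control library, so they are not independent. None of the 9 differed 2-fold from the control with hairpin 1, where 0.646% of all genes did, or with hairpin 2, where 4.62% did.

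**Figure D2:**
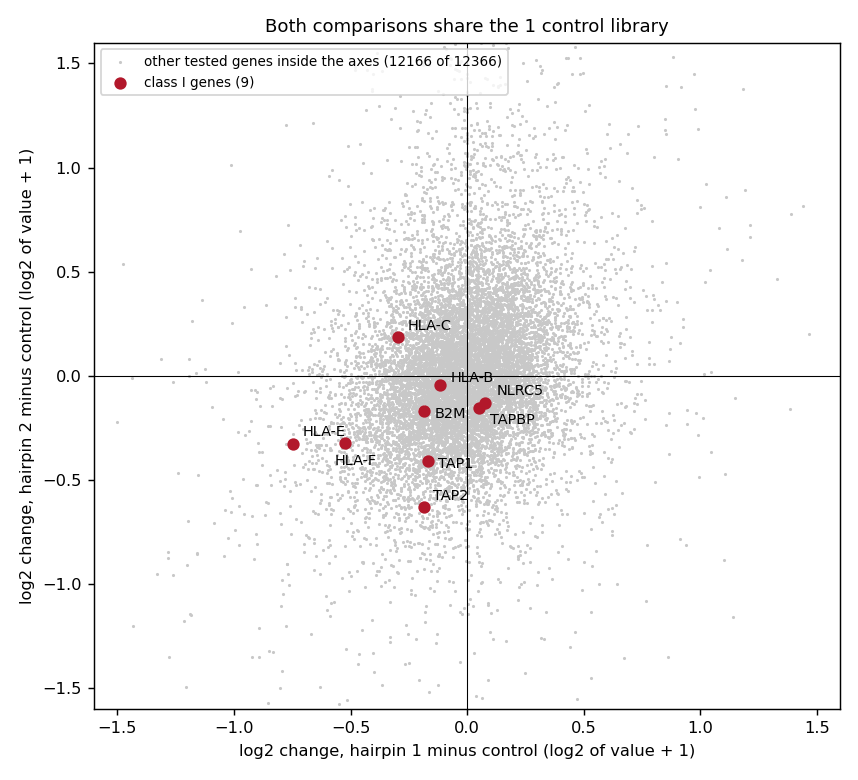
Log2 change against the shared control in the hairpin 1 library (x axis) and the hairpin 2 library (y axis), on the log2(value + 1) scale; red points are the 9 class I genes and grey points the other tested genes inside the axes. HLA-E lies farthest left and TAP2 lowest, while HLA-C is the only one of the 9 above 0 on the y axis (with quantile normalization HLA-B is too).

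The 4 heavy chains differed in how far they lay from the control. HLA-E, the ligand of NK receptors, was at 105.07 in the control, 62.25 with hairpin 1 and 83.63 with hairpin 2. Both knockdown values were below the control, at 59.2% and 79.6% of it. The mean log2 change over both libraries was -0.54 (SE 0.288, limma adjusted p = 1). HLA-F was at 19.42, 13.22 and 15.33, again below the control in both libraries, at 68.1% and 78.9% of it, with a mean log2 change of -0.42 (SE 0.244, limma adjusted p = 1). For both genes the hairpin 1 library was the lower one.

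HLA-B and HLA-C both present peptides to T cells. HLA-B was close to the control in both libraries, and HLA-C was below it with hairpin 1 and above it with hairpin 2. HLA-B was at 114.53 in the control, 105.53 with hairpin 1 and 110.96 with hairpin 2, a knockdown mean of 108.2 ± 3.84 (SD, n = 2). The mean log2 change of HLA-B was -0.08 (SE 0.250), smaller than its error. HLA-C was at 194.71, 158.57 and 221.69, so the control lay between the knockdown libraries. HLA-C was at 81.4% of the control with hairpin 1 (log2 change -0.29) and 114% with hairpin 2 (0.19), the single class I gene above the control in the hairpin 2 library, where HLA-B was also above it, by 0.01 on the log2 scale, with quantile normalization. HLA-B and HLA-C, which have the most alike promoters printed above, had log2 changes of -0.05 and 0.19 in the hairpin 2 library. That difference between the genes was not tested, and heavy chain reads are hard to assign.

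B2M, the light chain that every class I heavy chain needs, had nearly the same value in both knockdown libraries. It was at 849.83 in the control, 746.42 with hairpin 1 and 755.47 with hairpin 2. The knockdown mean was 750.9 ± 6.40 (SD, n = 2), at 87.8% and 88.9% of the control. The control lay outside the knockdown values, yet the mean log2 change of -0.18 was within its error (SE 0.274, limma adjusted p = 1), since limma pools the spread over genes.

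**Figure D3:**
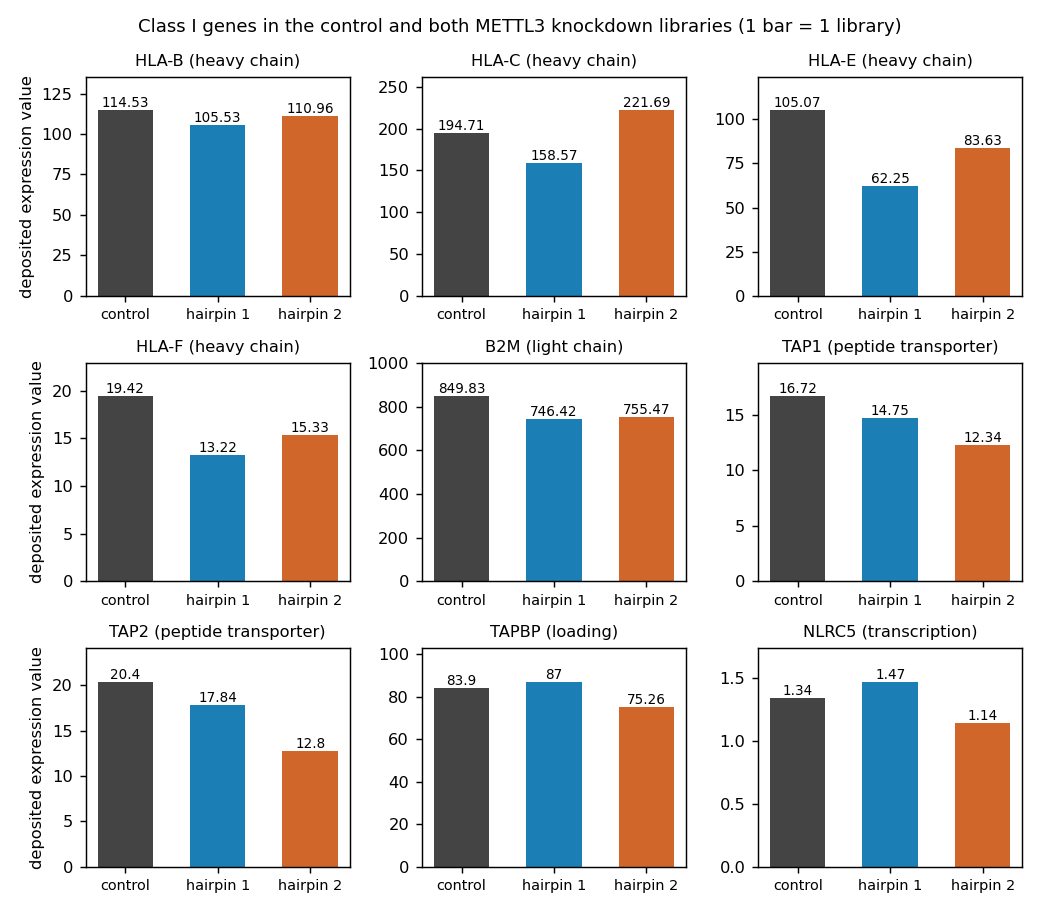
Deposited expression values of the 9 class I genes, 1 panel per gene with its own axis from 0, and 1 bar per library. HLA-E is at 105.07 in the control and at 62.25 and 83.63 on knockdown, B2M has almost equal knockdown bars, and HLA-C is highest in the hairpin 2 library.

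The transporter subunits were lower mainly in the hairpin 2 library. TAP1 was at 16.72 in the control, 14.75 with hairpin 1 and 12.34 with hairpin 2, or 88.2% and 73.8% of the control. TAP2 was at 20.4, 17.84 and 12.8, or 87.5% and 62.7%. For both subunits the order was control, hairpin 1, hairpin 2, the reverse of HLA-E and HLA-F within the knockdown libraries. The mean log2 changes were -0.29 for TAP1 (SE 0.248) and -0.41 for TAP2 (SE 0.283), both with a limma adjusted p of 1. In the hairpin 2 library the sum of the squamous markers was also lowest and that of the kidney line genes highest. Single genes went the other way: 1 of the 10 squamous markers was above the control there, and the kidney line gene PAX8 was below it. That marker was KRT15, chosen after its values were seen (11.21, 9.67 and 15.4). The part of this library difference in the TAP1 and TAP2 values was not tested.

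TAPBP and NLRC5 were a little above the control with hairpin 1 and a little below it with hairpin 2. TAPBP, the tapasin gene, was at 83.9 in the control, 87 with hairpin 1 and 75.26 with hairpin 2. NLRC5 was close to the filter in every library, at 1.34, 1.47 and 1.14. For both genes the control lay between the knockdown values, and their mean log2 changes were -0.05 (SE 0.257) and -0.03 (SE 0.413), the second on a scale that understates changes of low genes.

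Other genes of the pathway were described from lists of proteasome and trimming enzymes, endoplasmic reticulum chaperones, regulators and class I-like molecules. None of their members passed limma's adjusted threshold, and neither did any other of the 12375 genes tested. IRF9 was the single one with an unadjusted limma p under 0.05, a level that 1.31% of all genes tested reached. Over all genes tested, 52.1% were lower than the control with hairpin 1 and 49.7% with hairpin 2. The peptide supply list split by library. Of its 13 tested genes, 3 were lower and 10 higher than the control with hairpin 1. With hairpin 2, 12 genes of the list were lower and 1 higher. Its medians were 0.13 and -0.21. Among its members with the highest control values, the activator subunit PSME2 was at 316.68, 334.53 and 222.47, its partner PSME1 at 216.74, 231.83 and 211.15, and the constitutive subunit PSMB6 at 186.75, 193.9 and 113.79. PSMB5 (302, 331.28 and 279.89) and PSMB7 (121.94, 134.52 and 114.59), which carry the other constitutive active sites, had the same order. Chosen after their values were seen, the immunoproteasome genes also had their lowest values with hairpin 2. PSMB9, whose gene adjoins TAP1 head to head in RefSeq, was at 9.08, 12.52 and 5.92, while TAP1 was at 16.72, 14.75 and 12.34. The partner subunits PSMB8 (28.57, 26.3 and 19.54) and PSMB10 (27.1, 33.14 and 19.61) are induced by interferon with it.

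Loading and folding chaperones were lower by small amounts: 6 of 7 with hairpin 1 (median -0.17) and 7 of 7 with hairpin 2 (median -0.24). Against the same control library, 52.1% and 49.7% of all genes tested were lower. The lectin chaperone CANX, which holds new heavy chains, was at 144.04, 127.2 and 127.92. CALR, its soluble relative in the loading complex, was at 596.4, 506.46 and 579.48, and PDIA3, the oxidoreductase of that complex, at 198.64, 153.1 and 193.93. GANAB, which trims glycans of new chains, was at 199.17, 198.02 and 158.35, and the chaperone HSPA5 at 77.33, 68.68 and 65.51. TAPBPL, another peptide editor, chosen after its values were seen, was at 12.63, 15.31 and 9.57.

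Regulators of class I genes had no common direction. With hairpin 1, 13 of 20 tested were lower (52.1% of all genes tested), and with hairpin 2, 8 of 20 (49.7%). IRF9, the DNA-binding part of the interferon-activated ISGF3 complex, was at 26.67 in the control, 16.05 with hairpin 1 and 14.81 with hairpin 2. Both knockdown values were below the control, at 60.2% and 55.5% of it, with a mean log2 change of -0.75 (SE 0.238, limma adjusted p = 1). The regulator with the highest control value, the NF-kB subunit RELA, was at 72.27, 69.98 and 64.83, and the interferon gamma receptor chains IFNGR1 and IFNGR2 at 22.56, 18.31 and 26.12 and at 46.74, 42.9 and 51.82. The regulators that follow, other than RFXANK, were chosen after their values were seen. STAT2, which binds IRF9, was at 9.58, 8.06 and 7.29. Of the RFX subunits that bind the SXY module, RFX5 was at 10.81, 9.7 and 15.55, RFXANK at 44.51, 61.75 and 47.14, and RFXAP at 1.11, 1.72 and 3.42. IRF1, an interferon-induced activator of class I genes, was at 6.86, 7.22 and 7.14, nearly equal in the 3 libraries.

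**Figure D4:**
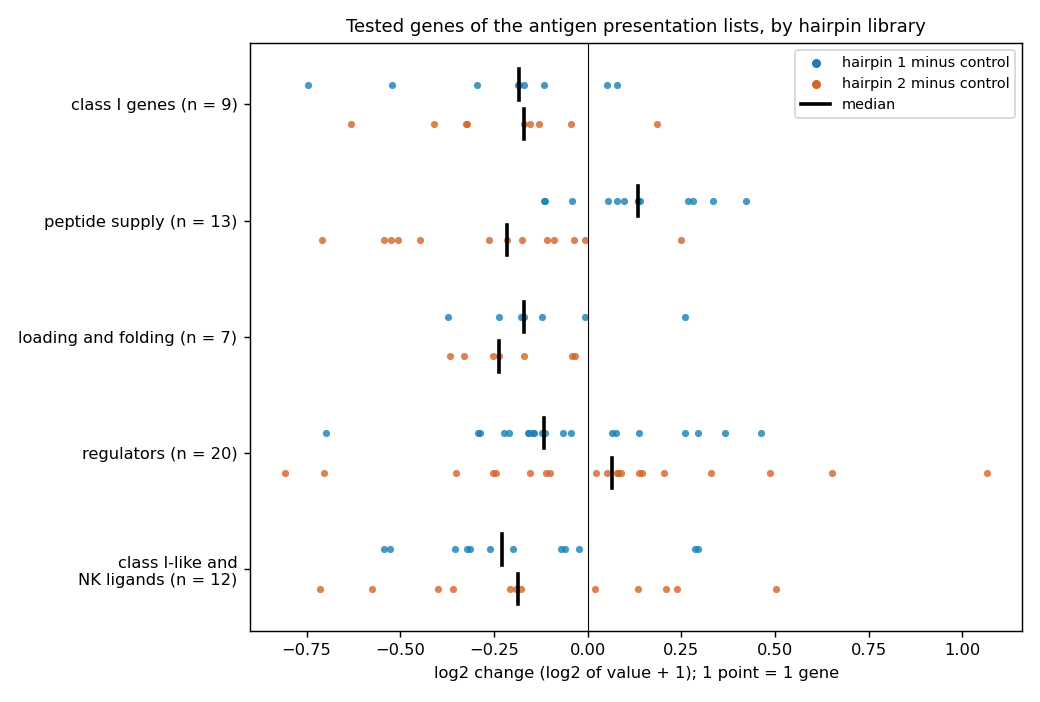
Log2 change against the control, on the log2(value + 1) scale, of each tested gene in 5 lists; blue points are the hairpin 1 library, orange points the hairpin 2 library, and black bars the list medians. The median of the peptide supply genes lies to the right of 0 with hairpin 1 (0.13) and to the left with hairpin 2 (-0.21), while the median of the class I genes lies to the left in both (-0.18 and -0.17).

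Class I-like molecules and NK ligands were lower in 10 of 12 tested genes with hairpin 1 (median -0.23) and 7 of 12 with hairpin 2 (median -0.19). The shares of all genes tested that were lower were 52.1% and 49.7%. MICA, a stress-induced ligand of the NK receptor NKG2D, was at 17.1, 14.12 and 14.99, and ULBP2, another such ligand, at 14.74, 11.67 and 10.94. The neonatal Fc receptor FCGRT was at 24.7, 23.63 and 29.32, PROCR at 19.05, 12.76 and 16.36, and RAET1L at 10.26, 12.81 and 6.56. HLA-G, chosen after its values were seen, was low in all libraries (1.79, 1.23 and 2.06). Among immune checkpoint ligands 0 of 4 tested passed, NECTIN2 was at 31.66, 22.46 and 33.72, and CD274 (PD-L1), named after its values were seen, was too low to be tested at 0.42, 0.39 and 0.21.

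Class II genes, which antigen-presenting cells rather than epithelium usually express, were near 0 in the control and with hairpin 1. Of the 12 listed, 6 passed the filter, and each of them only through the hairpin 2 library, so they had to differ there. HLA-DOB, with the highest control value of the list, was at 0.75, 0.14 and 0.38, below the control in both knockdown libraries and too low to be tested. HLA-DQB1, chosen after its values were seen, was at 0.03, 0 and 4.08, HLA-DMA at 0.51, 0.56 and 1.99, HLA-DMB at 0.13, 0.14 and 1.76, and HLA-DRB1 at 0.12, 0.12 and 1.34. The class II list summed to 2.01, 1.64 and 12.77. The class II activator CIITA, also chosen after its values were seen (0.11, 0.17 and 0.18), and the invariant chain CD74 (0.18, 0.17 and 0.4) stayed under 0.5 in all 3 libraries. These values come from the library with CDKN2A at 144.68, and the part of that difference in them was not tested.

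Genes with log2 changes near the class I medians were also found outside the class I genes. Among 6136 genes with a control value of at least 10, 298 had log2 changes within a Euclidean distance of 0.1 of the class I medians over the 3 libraries. The 5 nearest were MBTPS1 (45.87, 40.33 and 40.66), LIN52 (19.5, 17 and 17.28), CANX, PCBD1 (146.02, 129.11 and 130.05) and TAF7 (32.94, 28.82 and 29.37). A likeness over 3 libraries is a weak description, and the distances of these genes were at most 0.0097. Of the class I genes, B2M lay close to the medians (-0.19 with hairpin 1 and -0.17 with hairpin 2). HLA-E (-0.75 and -0.33), TAP2 (-0.18 and -0.63) and HLA-C (-0.29 and 0.19) lay farther off, so the medians do not stand for each gene.

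In TE-10 with normal METTL3, 4 of the 9 class I genes had at least 1 m6A peak assigned to them, where 52.4% of the tested genes had one (39.4% of the whole table). The 4 genes held 8 peaks, 2 each, of 15940 in the list. HLA-C, HLA-E, B2M, TAP1 and TAPBP had none. How reads matching several heavy chains were placed for the peaks is not given either, so the lack of a peak on HLA-C or HLA-E is uncertain to that extent. The list gives no score or fold enrichment, which leaves the peaks without an order of strength, and it does not say whether the immunoprecipitations were pooled.

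The peaks differed in how well they sat on the genes. Peak positions are given as in the deposited file. The notes name hg38, but the transcript starts implied by the file for HLA-B, HLA-F and TAP2 lay 32190, 32000 and 32192 bases below those of RefSeq in GRCh38.p14. For NLRC5 the implied start had a larger offset the other way (RefSeq minus file -61428 bases). The positions thus do not follow hg38, and no sequence was read at them. TAP2 had an exonic peak at chr6:32805862-32806142, centred 545 bases from the start, and an intronic one at chr6:32796602-32796823, centred 9835 bases from it. NLRC5 had 2 exonic peaks, at chr16:57059338-57059584 and chr16:57059943-57060673, centred 8476 and 9323 bases from the start. HLA-F had a 3'UTR peak at chr6:29705604-29706250 and a peak at chr6:29691246-29691523 that the file classes as upstream, centred at -50 with a width of 278 bases, so that it spans the start.

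Both HLA-B peaks were classed as intronic, at chr6:31275582-31275842 and chr6:31282628-31282925, centred 49277 and 42213 bases from the annotated start. RefSeq's HLA-B spans 3305 bases, so these peaks lie outside it, and the deposited file ties them to HLA-B through a transcript of its own annotation. HLA-G had a similar intronic peak, 59645 bases from its start. Counted from the start in the file against the RefSeq length, the peaks of TAP2 and the 3'UTR peak of HLA-F fell within the length of their gene. NLRC5 could not be judged this way, because its start in the file is far from that of RefSeq. With exon and UTR peaks only, 3 of the 9 genes had a peak, against 31.5% of the whole table, which includes genes too low to be tested. The share among tested genes was not computed for these peaks. For all peaks it was 52.4%, above the 39.4% of the whole table.

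**Figure D5:**
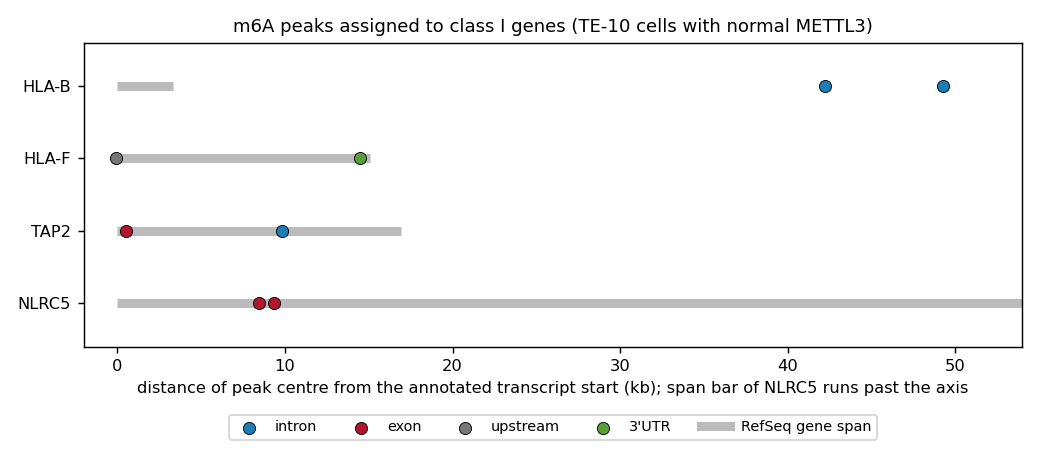
Distance of each m6A peak centre from the annotated transcript start, in kb, for the 4 class I genes with peaks; point colours give the class in the deposited file and grey bars the length of the RefSeq gene, drawn from the start in the file and cut at the axis for NLRC5. The HLA-B peaks lie at 42213 and 49277 bases, far beyond its grey bar of 3305 bases.

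Around the 9 genes, peaks were assigned to 6 of 14 peptide supply genes, 5 of 7 loading and folding genes and 11 of 21 regulators, against 39.4% of the whole table and 52.4% of tested genes. CALR had an exonic peak, PDIA3 a 5'UTR peak near its start and HSPA5 a 3'UTR peak. STAT2 had an intronic peak and IRF9 none. Any link between peaks and expression changes was not tested. MICA had 4 peaks, 2 upstream of its start and 2 in the 5'UTR. No class II gene had a peak, but none was above 0.75 in the control (HLA-DOB), so little RNA was there to be mapped.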

How the data were processed

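Alignment with TopHat2, counting with HTSeq and, for the immunoprecipitation, peak calling with MACS2 are named without versions, per the submitters' processing notes. The deposited expression table holds 1 signal for each gene in each library, in a unit that the header leaves unnamed; it is not counts and not a complete CPM or TPM table, so depth is unknown and no counting interval is given. Libraries were stranded and polyadenylated RNA was used, per the labels' protocols. The deposited peak list gives position, gene, class and distance to the start, in bases and not on a further scale.

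Values were transformed to log2(value + 1) and 12375 genes that reached 1 in any library were tested. Knockdown (n = 2) was compared with control (n = 1) by limma 3.58.1 in R 4.3.3 with a mean-variance trend and Benjamini-Hochberg adjustment over all genes at 0.05; the procedure was tested on simulated data. Promoters were searched in Python 3.11.15 and aligned with Biopython 1.88. The 9 genes and all lists were chosen with earlier results of these data known. The text names the 9 genes and up to 5 genes per list with the highest control value; others are marked as chosen after their values were seen. Alternatives covered the pseudocount, filter, trend, normalization, single hairpins and which peaks count. One gene of the regulator list is not reported here by name.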

Additional observations from a re-analysis of the deposited data

How the results depend on the processing

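No gene and no class I gene passed the adjusted threshold in limma under any of the 7 other settings of pseudocount, filter, trend and normalization; unadjusted p under 0.05 was reached by 123 to 444 genes and by 0 class I genes. No class I gene changed the sign of its mean log2 change in those settings. Left to a single library, HLA-C was at -0.29 with hairpin 1 and 0.19 with hairpin 2, TAPBP at 0.05 and -0.15, and NLRC5 at 0.08 and -0.13, values with no test. The hairpin 1 median of the class I genes was -0.16 with quantile normalization, -0.16 with median-of-ratios scaling and -0.21 with equal sums. The hairpin 2 median was -0.22 with a pseudocount of 0.1, -0.25 with a mean of at least 5, -0.29 with quantile normalization, -0.20 with median-of-ratios scaling and -0.21 with equal sums. The median of the mean change was -0.23 with a mean of at least 5 (8 genes, NLRC5 being left out) and -0.21 with equal sums; without 1 of the hairpin libraries it lay between -0.18 and -0.17. The cause of these shifts was not tested. With only peaks at least as wide as the median (316 bases), 2 class I genes had a peak, and 24.7% of the whole table, untested genes included. The planned count of genes lower in both knockdown libraries was not run, since both comparisons share the control. No paired analysis was possible because the labels give the single control no replicate number, and the numbers of the knockdown libraries are those of the hairpins. Depth is unknown, and the standard errors of the class I log2 changes, from 0.244 to 0.413, limit what could be detected.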
